A study of Mus musculus with 9 samples.

Results

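The genes described here are the 3 natriuretic peptide receptors Npr1, Npr2 and Npr3, the protease gene Corin, the cGMP-dependent protein kinase genes Prkg1 and Prkg2, and the phosphodiesterase gene Pde5a. They were taken by symbol from the mRNA values of mouse renal cortex, as 7 of 21950 mRNA genes, and the FPKM of all transcripts with the same gene ID was summed. FPKM is the number of fragments per kilobase of transcript, scaled to the mapped fragments of the library, so levels of different genes can be set side by side. The genes were listed with results of these same mice known, and their levels and fold changes are therefore given as a description, with no test.

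Natriuretic peptides are hormones of the heart and vessels that raise sodium and water excretion by the kidney and relax blood vessels. The membrane protease corin cuts the precursor of atrial natriuretic peptide, and the hormone then binds the receptor encoded by Npr1, whose inner part is a guanylyl cyclase that makes cGMP. Npr2 encodes the like receptor for C-type natriuretic peptide, while the receptor encoded by Npr3 binds all these peptides, has no cyclase and clears them from the circulation. Inside the cell cGMP switches on the kinases encoded by Prkg1 and Prkg2, and the phosphodiesterase encoded by Pde5a breaks cGMP down.

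Renal cortices came from 3 control, 3 dbdb and 3 dbR mice, 1 library per mouse, all male, on the C57BL/KsJ background (BKS. Cg-Dock7m+/+Leprdb/Nju), and 15 weeks old. The control mice were nondiabetic db/m littermates, heterozygous for the db mutation of the leptin receptor gene Lepr. The dbdb mice were db/db, homozygous for the same mutation, obese and with type 2 diabetes, and were given vehicle by gavage. The dbR mice were db/db and were given rosiglitazone, a thiazolidinedione drug that activates PPARγ, at 20 mg/kg/day by gavage for 8 weeks from an age of 7 weeks. The db mutation is a germline one, carried by every cell of the body, and all 3 groups carry at least 1 copy of it. The comparison dbdb vs. control asks what differs in the diabetic cortex, and dbR vs. dbdb asks what differs with the drug, and both use the same 3 dbdb libraries. The step sizes of low FPKM values put the depth at an estimated 24.0 to 29.4 M fragments per library. Lepr, summed over its transcripts, lay at 1.05 to 1.23 FPKM in control, 0.304 to 0.652 in dbdb and 0.335 to 0.512 in dbR, lower in every db/db library than in every control library. Proximal tubule markers summed to 2947 to 3606 FPKM across the libraries, and of 4 adrenal genes Cyp11b1 and Cyp11b2 were listed at 0 in all 9, Cyp11a1 at 0 in 8, and Star lay at 0.597 to 0.943 FPKM in control, 1.10 to 1.365 in dbdb and 0.698 to 1.24 in dbR. Control replicate 1 stood apart from the other libraries in smooth muscle and blood genes, with Acta2 at 16.2 FPKM against 5.71 to 8.63 elsewhere and Hbb-bs at 44.7 against 2.84 to 10.3, and the values of the 7 genes that moved most without it are given beside them.

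Npr3 was the gene of the 7 with the largest fold changes in both comparisons that involve dbdb, with a level in dbdb below that of both other groups. Npr1 was somewhat higher in both db/db groups than in control, Npr2 was alike in all groups, and Pde5a was lower in both db/db groups. Prkg2 was near the lower limit of measurement and highest in dbR when summed over its transcripts, while its main transcript overlapped between the groups. The groups of Prkg1 overlapped although its transcript Prkg1-202 was lowest in dbdb, and Corin was almost absent.

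The clearance receptor gene Npr3 (ENSMUSG00000022206) lies on the minus strand at chr15:11839896-11907287 (GRCm38), and the processed data held 1 transcript of it, ENSMUST00000066529 (Npr3-201), so its transcript values are its gene values. GENCODE gives this transcript 8 exons and a coding sequence of 536 codons, against 1057 in the Npr1 transcript and 1047 in the main Npr2 transcript. Its last coding exon, at chr15:11845177-11845288, is printed to show where the Npr3 reading frame stops, without the cyclase part that the other receptors have. The stop codon is in capitals, and the sequence runs 5′ to 3′ on the coding strand.
Npr3 last coding exon: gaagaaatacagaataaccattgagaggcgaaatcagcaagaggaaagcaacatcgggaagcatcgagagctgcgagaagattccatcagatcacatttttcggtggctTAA

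In the control cortex Npr3 was at 5.35, 6.25 and 6.24 FPKM. The dbdb libraries held 2.62, 2.83 and 3.01 FPKM. With rosiglitazone the values were 6.21, 6.23 and 6.14 FPKM. All 3 dbdb libraries lay below every control and every dbR library, and the dbR values lay within the range of the control values. The mean level was 5.95 ± 0.516 FPKM (SD, n = 3) in control, 2.82 ± 0.192 in dbdb and 6.19 ± 0.0475 in dbR. On the scale of log2(FPKM + 0.1), the fold change was -1.05 ± 0.090 (SE) in dbdb vs. control, 1.11 ± 0.090 in dbR vs. dbdb and 0.061 ± 0.090 in dbR vs. control, the last of which was -0.012 without control replicate 1. The mean in dbdb was 0.474 times that in control, and the mean in dbR was 2.20 times that in dbdb and 1.04 times that in control. An estimated 454 to 1258 fragments lay behind these levels, and at the lowest of these counting error alone amounts to 4.69% of the value. Leaving out each library in turn kept the log2 fold change between -1.12 and -0.999 in dbdb vs. control and between 1.06 and 1.16 in dbR vs. dbdb. As the cortex is a mixture of cells, fewer cells that carry an mRNA and less of it per cell cannot be told apart, for Npr3 or any other gene below.

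**Figure D1:**
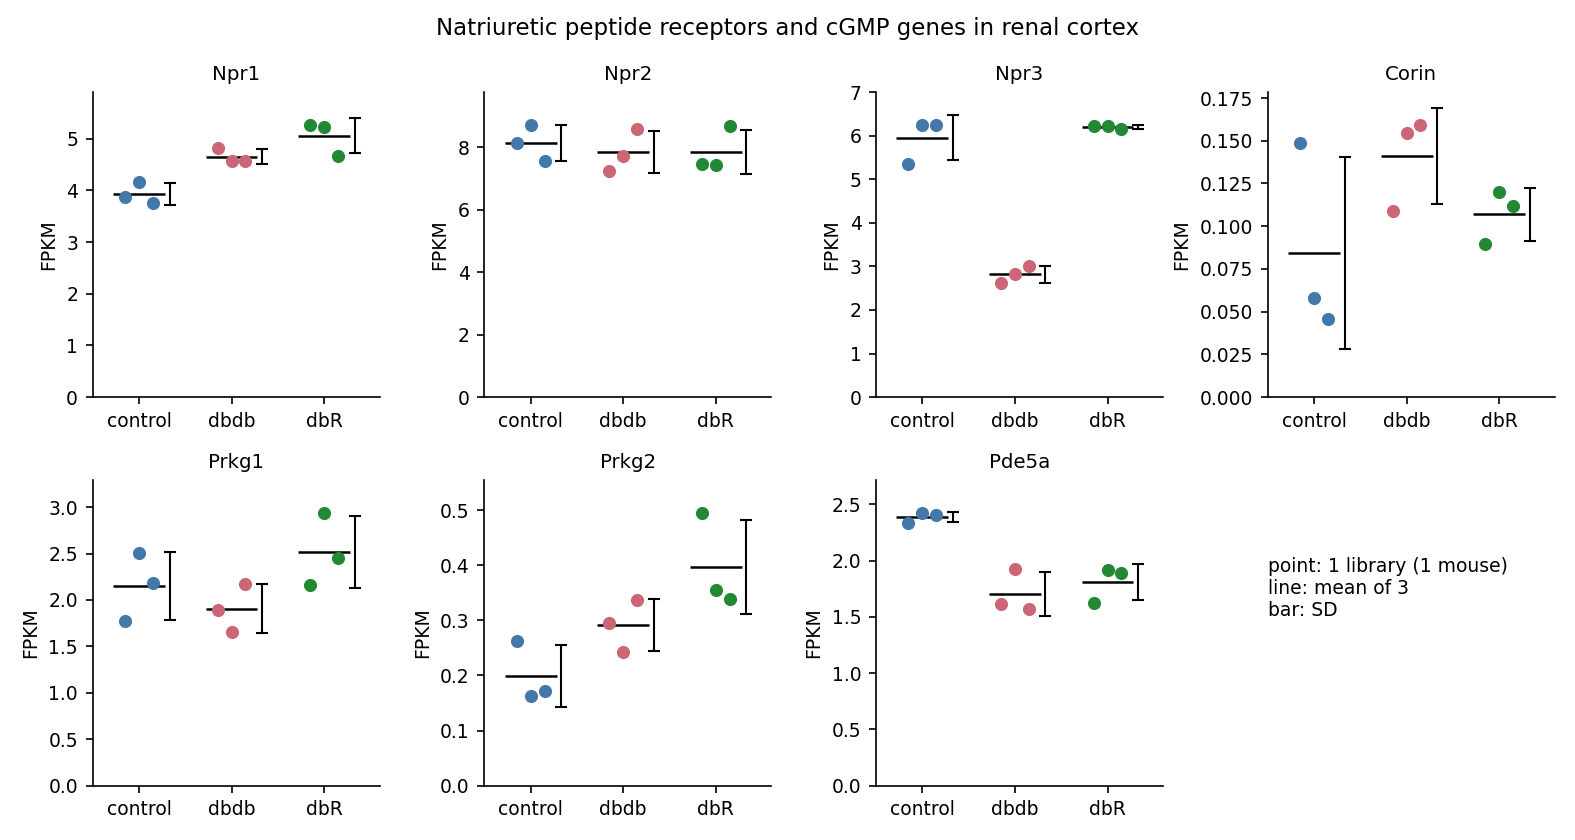
FPKM of the 7 genes (y axis, linear from 0) in the 3 control, 3 dbdb and 3 dbR libraries, with a point per library, a line at the mean of 3 and a bar for the SD. Npr3 lay at 2.62 to 3.01 FPKM in dbdb and at 5.35 to 6.25 in the other libraries, while Corin and Prkg2 stayed under 0.5 FPKM in all.

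Npr1 (ENSMUSG00000027931, chr3:90450591-90465866, minus strand), the receptor of atrial natriuretic peptide, was at 3.87, 4.17 and 3.75 FPKM in control. The level was 4.82, 4.56 and 4.58 FPKM in dbdb and 5.27, 5.23 and 4.67 FPKM in dbR. Every db/db library, with or without rosiglitazone, lay above every control library, and dbdb and dbR overlapped. The log2 fold change was 0.24 ± 0.084 (SE) in dbdb vs. control, 0.12 ± 0.084 in dbR vs. dbdb and 0.36 ± 0.084 in dbR vs. control, and means were 3.93 ± 0.216, 4.65 ± 0.142 and 5.06 ± 0.337 FPKM (SD, n = 3 each). Only 1 transcript of Npr1 was in the processed data.

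Npr2 (ENSMUSG00000028469, chr4:43631935-43651244, plus strand), the receptor of C-type natriuretic peptide, had the highest FPKM of the 7 genes in every group. Its values were 8.12, 8.72 and 7.54 FPKM in control, 7.25, 7.71 and 8.58 in dbdb, and 7.47, 7.43 and 8.66 in dbR. The 3 groups overlapped, and the log2 fold changes of -0.052 ± 0.094 (SE) in dbdb vs. control, 0.0015 ± 0.094 in dbR vs. dbdb and -0.050 ± 0.094 in dbR vs. control were all within the SE. Leaving out 1 library moved these Npr2 values between -0.12 and 0.067, with a change of sign in each comparison. The main transcript Npr2-201 held 72.8% to 93.8% of the gene's FPKM in each library. An annotated antisense lncRNA, Gm12473, overlaps Npr2 and was at 2.21 to 2.67 FPKM in control, 1.19 to 2.11 in dbdb and 1.49 to 2.90 in dbR. Gm12473 was lower in every dbdb than in every control library, and dbR overlapped with both. The libraries were strand-specific, which keeps reads of the 2 strands apart where the counting used it. Of the 461 assembled lncRNA transcripts and the 2043 of 2071 annotated ones that could be placed, none lay within 100 kb of Npr3.

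FPKM is per length, so the receptors can be set against each other within a library, a ratio that a linear scaling of the library does not change. The ratio of Npr3 to Npr1 was 1.38, 1.5 and 1.67 in control, 0.544, 0.621 and 0.657 in dbdb, and 1.18, 1.19 and 1.32 in dbR. Npr3 exceeded Npr1 in every control and dbR library and was below it in every dbdb library. The dbR ratios lay between the other groups and below all control ratios, with Npr1 higher in dbR than in control. The mean ratio was 1.52 ± 0.141 (SD, n = 3) in control, 0.607 ± 0.0574 in dbdb and 1.23 ± 0.0754 in dbR. Summed over both cyclase receptors, Npr1 and Npr2 reached 11.3 to 12.9 FPKM in control, 12.1 to 13.2 in dbdb and 12.7 to 13.3 in dbR, with overlap between the groups. Npr3 made up 30.9% to 35.6% of the FPKM of the 3 receptors in control, 17.9% to 18.8% in dbdb and 31.5% to 33.0% in dbR.

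**Figure D2:**
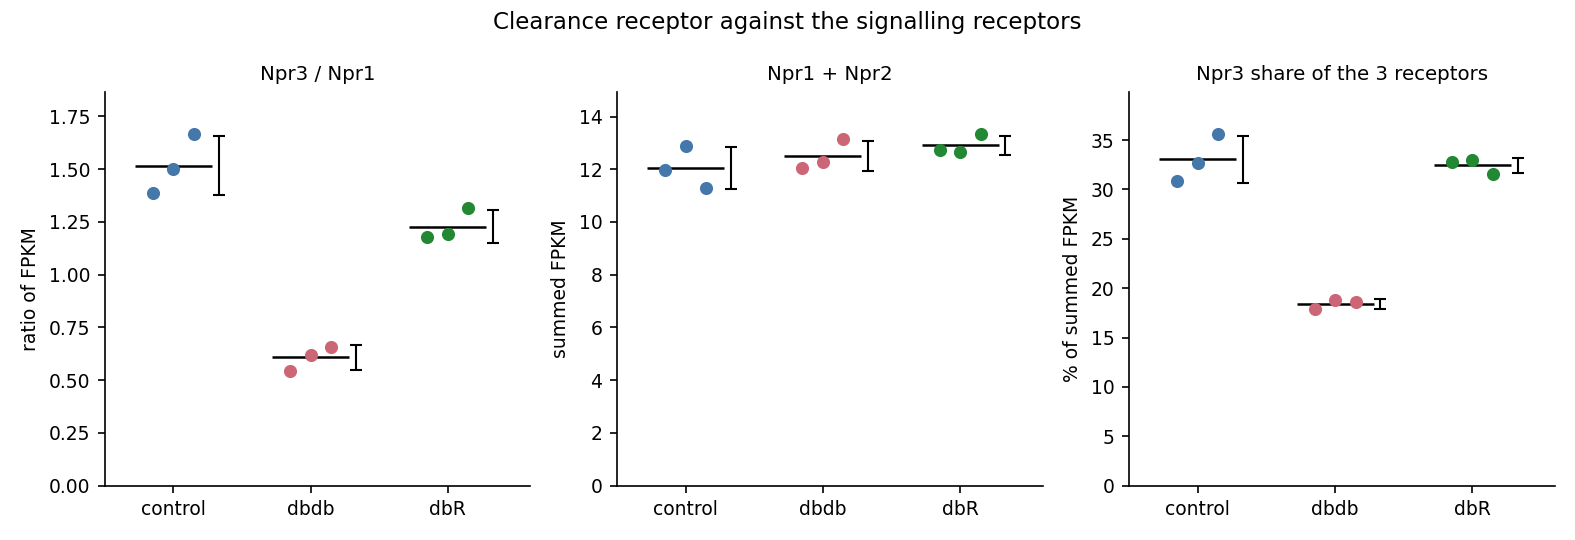
Ratio of Npr3 to Npr1 FPKM (left), the summed FPKM of Npr1 and Npr2 (middle) and the share of Npr3 in the FPKM of the 3 receptors in percent (right), per library, with the mean of 3 as a line and the SD as a bar. The ratio was under 1 in the 3 dbdb libraries and above 1 in the other 6, while the sum of Npr1 and Npr2 stayed between 11.3 and 13.3 FPKM.

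Corin (ENSMUSG00000005220, chr5:72300025-72504473, minus strand), best known from the heart, was barely read in the cortex. Its FPKM was 0.149, 0.0579 and 0.0460 in control, 0.109, 0.155 and 0.159 in dbdb, and 0.0899, 0.120 and 0.112 in dbR. The groups overlapped, and the highest control value was that of control replicate 1. An estimated 6 to 20 fragments per library lay behind these values, a counting error of 41.7% at the lowest, and the log2 fold change of 0.42 ± 0.28 (SE) in dbdb vs. control was 0.66 without control replicate 1 and 0.27 without control replicate 3. In dbR vs. control the Corin value of 0.21 ± 0.28 was 0.44 without control replicate 1, 0.12 without control replicate 2 and 0.060 without control replicate 3. Differences in Corin were not detectable at this depth.

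Prkg1 (ENSMUSG00000052920, chr19:30564489-31765033, minus strand) encodes the cGMP-dependent kinase of smooth muscle, mesangium and other cells. Summed over its transcripts it was at 1.77, 2.50 and 2.18 FPKM in control, 1.90, 1.66 and 2.17 in dbdb, and 2.16, 2.93 and 2.46 in dbR. The groups overlapped in each comparison, with dbR extending highest. The log2 fold change was -0.16 ± 0.16 (SE) in dbdb vs. control, 0.38 ± 0.16 in dbR vs. dbdb and 0.22 ± 0.16 in dbR vs. control. Single libraries and the scaling moved these values. In dbdb vs. control Prkg1 was at -0.29 without control replicate 1, -0.25 without dbdb replicate 3, -0.067 without dbdb replicate 2 and -0.049 without control replicate 2, and it was -0.0096 with mitochondrial transcripts left out and equal sums and -0.26 with quantile normalization. In dbR vs. control it was at 0.092 without control replicate 1, 0.11 without dbR replicate 2 and 0.33 without control replicate 2, and it was 0.090 with quantile normalization.

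The kinase has 2 forms, Iα and Iβ, which start from separate first exons. The processed data held transcript Prkg1-201 with 671 codons and Prkg1-202 with 686 codons, the lengths of the Iα and Iβ forms, whose starts lie 100663 bases apart, and the non-coding transcript Prkg1-206. The 250 bases upstream of each of the 2 coding starts, from RefSeq promoters of GRCm38.p6 and adjoining the start of the measured transcript, are printed to show that they share no start region.
Prkg1-201 upstream, chr19:31765034-31765283, minus strand: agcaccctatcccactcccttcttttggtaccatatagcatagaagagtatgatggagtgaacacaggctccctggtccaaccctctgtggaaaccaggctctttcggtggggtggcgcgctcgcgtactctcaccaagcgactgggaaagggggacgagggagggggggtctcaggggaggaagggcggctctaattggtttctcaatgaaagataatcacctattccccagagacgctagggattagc
Prkg1-202 upstream, chr19:31664371-31664620, minus strand: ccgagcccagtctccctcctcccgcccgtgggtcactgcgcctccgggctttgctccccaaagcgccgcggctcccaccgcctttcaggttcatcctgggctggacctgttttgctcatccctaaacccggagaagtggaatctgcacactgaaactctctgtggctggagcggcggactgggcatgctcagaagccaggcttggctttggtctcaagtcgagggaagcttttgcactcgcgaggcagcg

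Prkg1-201 was at 0.693, 0.768 and 0.355 FPKM in control, 0.765, 0.774 and 1.03 in dbdb, and 1.03, 1.13 and 1.19 in dbR. All its dbR values were above all control values, and dbR replicate 1 and dbdb replicate 3 met at 1.03. Prkg1-202 was at 0.855, 1.39 and 1.31 FPKM in control, 0.851, 0.523 and 0.529 in dbdb, and 0.958, 1.44 and 0.903 in dbR. Every dbdb value of Prkg1-202 was below every control and every dbR value, although dbdb replicate 1 and control replicate 1 nearly met. Prkg1-202 thus held 48.3% to 60.1% of the Prkg1 FPKM in control, 24.4% to 44.9% in dbdb and 36.8% to 49.1% in dbR. The division of reads between transcripts is an estimate of Cufflinks, and it rests on 190 to 342 fragments per library for the whole gene.

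**Figure D3:**
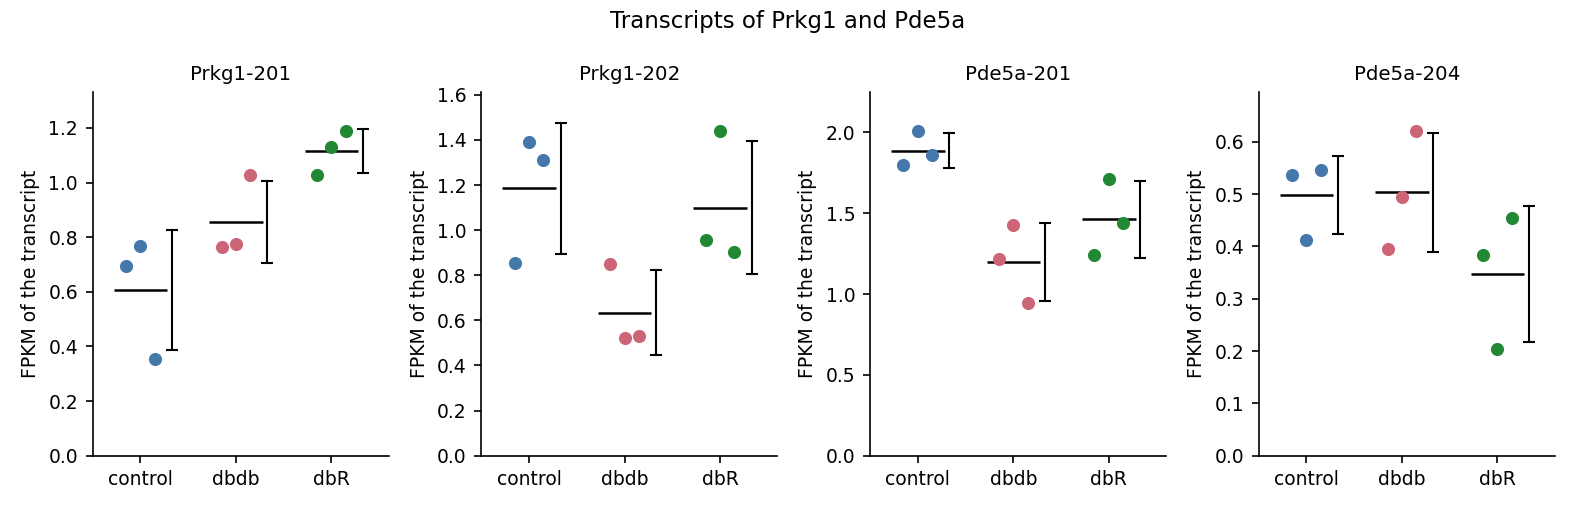
FPKM of the 2 coding Prkg1 transcripts and the 2 Pde5a transcripts (y axis, linear from 0) per library, with the mean of 3 as a line and the SD as a bar. Prkg1-202 was lowest in dbdb at 0.523 to 0.851 FPKM, and Prkg1-201 was highest in dbR at 1.03 to 1.19 FPKM.

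Prkg2 (ENSMUSG00000029334, chr5:98929773-99037351, minus strand) encodes the membrane-bound cGMP kinase, which in the kidney has been found in renin-producing cells and tubules. It was at 0.263, 0.162 and 0.171 FPKM in control, 0.296, 0.243 and 0.338 in dbdb, and 0.494, 0.355 and 0.340 in dbR. Summed over its transcripts, all dbR libraries lay above all dbdb and all control libraries, the nearest of them by a small margin. The dbdb and control groups overlapped through control replicate 1. The log2 fold change was 0.40 ± 0.23 (SE) in dbdb vs. control, 0.33 ± 0.23 in dbR vs. dbdb and 0.73 ± 0.23 in dbR vs. control. Against control, and without control replicate 1, Prkg2 was at 0.55 in dbdb and at 0.88 in dbR. Without dbR replicate 1 it was at 0.20 in dbR vs. dbdb. These levels stand on an estimated 17 to 48 fragments, with a counting error of 24.1% at the lowest, and the pseudocount of 0.1 FPKM is large beside them, so the fold changes understate the ratio of the means, which was 1.99 for dbR over control.

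Pde5a (ENSMUSG00000053965, chr3:122728947-122859374, plus strand) encodes the cGMP-specific phosphodiesterase that sildenafil inhibits. Control libraries were close together at 2.33, 2.42 and 2.40 FPKM. The values were 1.61, 1.92 and 1.57 FPKM in dbdb and 1.62, 1.92 and 1.89 in dbR. Every db/db library, treated or not, lay below every control library, and dbdb and dbR overlapped. The log2 fold change was -0.47 ± 0.12 (SE) in dbdb vs. control, 0.087 ± 0.12 in dbR vs. dbdb and -0.38 ± 0.12 in dbR vs. control. The small Pde5a value in dbR vs. dbdb ranged from 0.034 without dbdb replicate 3 to 0.17 without dbdb replicate 2, with 0.16 without dbR replicate 1 and 0.047, 0.053 and 0.055 without dbR replicate 2, dbdb replicate 1 and dbR replicate 3. The main transcript Pde5a-201 had 1.80 to 2.01 FPKM in control, 0.946 to 1.43 in dbdb and 1.24 to 1.71 in dbR, and the groups of Pde5a-204, at 0.204 to 0.621 FPKM, overlapped.

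**Figure D4:**
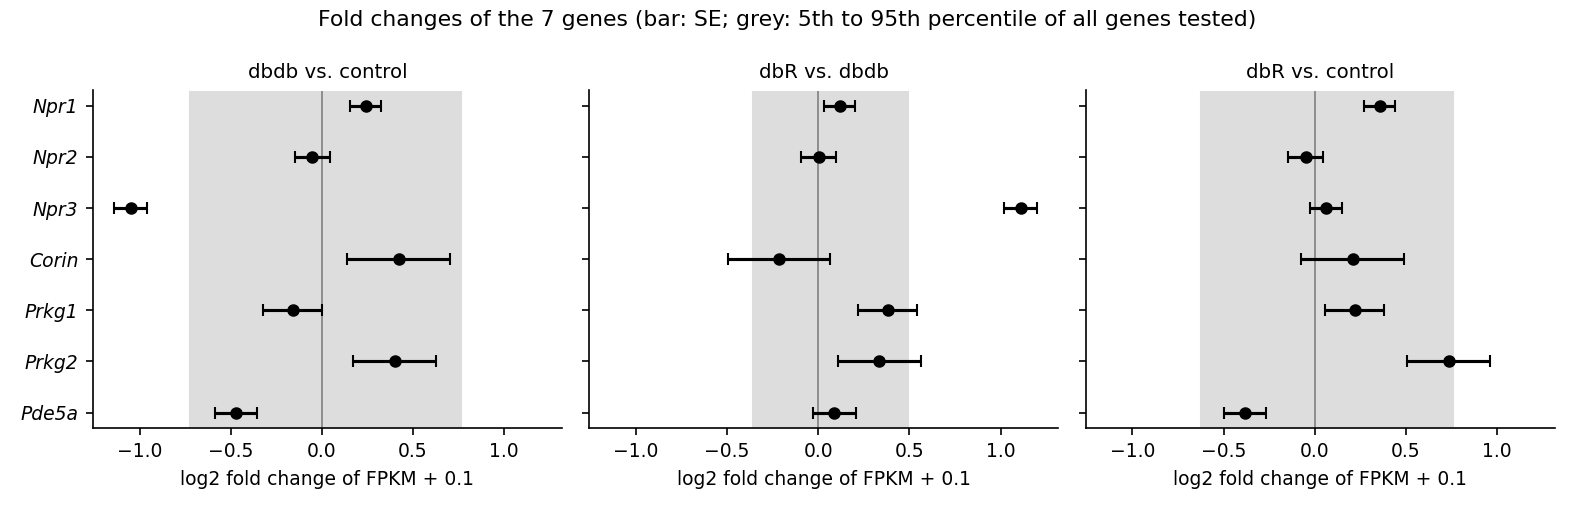
Log2 fold changes of FPKM + 0.1 (x axis) of the 7 genes in the 3 comparisons, with bars for the SE and a grey band from the 5th to the 95th percentile of all genes tested. Npr3 lay outside the band at -1.05 in dbdb vs. control and at 1.11 in dbR vs. dbdb, and the other 6 genes lay inside it in all 3 comparisons.

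In order of FPKM the genes ran Npr2, Npr3, Npr1, Pde5a, Prkg1, Prkg2 and Corin in control. In dbdb the order was Npr2, Npr1, Npr3, Prkg1, Pde5a, Prkg2 and Corin, and in dbR it was Npr2, Npr3, Npr1, Prkg1, Pde5a, Prkg2 and Corin. Pde5a and Prkg1 were the pair of neighbours whose libraries overlapped, in control and in dbdb, and all other neighbours were apart within each group. Npr3 lay above Npr1 in control and dbR and below it in dbdb, with no overlap in any group.

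All 7 genes passed the filter of a mean of at least 0.1 FPKM over the 9 libraries, as did 14537 genes in all. Groups without overlap were seen for 3 of the 7 in dbdb vs. control, 2 in dbR vs. dbdb and 3 in dbR vs. control, beside 42.4%, 22.7% and 41.9% of all genes. As the genes were chosen on the same contrasts, nothing is read from these counts. The median log2 fold change of the 7 was -0.052, 0.12 and 0.21 in the 3 comparisons, beside medians of all genes of -0.0030, -0.0022 and -0.0014.

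Markers of several cell types of the cortex moved with the groups, and the shares of all genes called in limma with Benjamini-Hochberg adjustment at 0.05, in either direction, were 26.4% in dbdb vs. control, 0.743% in dbR vs. dbdb and 24.1% in dbR vs. control. The summed FPKM of 8 endothelial markers was 163.7 to 182.0 in control, 141.3 to 155.2 in dbdb and 185.9 to 206.7 in dbR, so that, like Npr3, it was lowest in every dbdb library. The 8 markers were split, and Pecam1, Cdh5, Kdr and Emcn fell in dbdb vs. control. Plvap, Ehd3, Tek and Flt1 had higher means there, with overlap and no call. These were 45.93, 9.485, 11.61 and 16.91 FPKM in dbdb against 40.94, 8.666, 11.27 and 15.99 in control. Kdr, Emcn and Tek rose in dbR vs. dbdb, and Plvap, Ehd3, Tek and Flt1 rose in dbR vs. control. The 5 macrophage markers summed to 29.1 to 37.0 FPKM in control, 12.3 to 15.6 in dbdb and 17.9 to 20.0 in dbR, again lowest in every dbdb library. All 5 fell in dbdb vs. control, and 3 fell in dbR vs. control. In dbR vs. dbdb 0 were called by limma, with 5 of 5 at an unadjusted p under 0.05, beside 17.5% of all genes. At that threshold stood 6 of 8 endothelial, 3 of 8 mesangial, pericyte and smooth muscle, and 1 of 8 podocyte markers. So did 2 of 5 intercalated cell, 1 of 3 distal convoluted tubule and 1 of 4 thick ascending limb markers, and 0 of the proximal tubule and principal cell markers.

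The 8 podocyte markers summed to 89.6 to 103.5 FPKM in control, 117.4 to 122.8 in dbdb and 102.9 to 123.4 in dbR, and 5 of 8 rose in dbdb vs. control and 3 of 8 in dbR vs. control. Markers of the distal nephron rose in dbdb vs. control in 3 of 3 genes for the distal convoluted tubule, 4 of 5 for principal cells and 5 of 5 for intercalated cells, and the same numbers rose in dbR vs. control. In dbR vs. dbdb 1 of these 13 genes was called, Atp6v1g3, which rose. Of the mesangial, pericyte and smooth muscle markers 1 of 8, Cspg4, rose in dbdb vs. control 1, Pdgfrb, rose in dbR vs. dbdb, and both rose in dbR vs. control. In dbdb vs. control 2 of 8 proximal tubule markers rose and 1 fell (1 and 1 in dbR vs. control), and 1 of 4 thick ascending limb markers rose (3 of 4 in dbR vs. control). Of the 2 inner medulla genes, Aqp4, at 15.0 to 17.1 FPKM in control, fell in both db/db groups against control. The other, Slc14a2, was at 0 in control and at most 0.119 FPKM elsewhere and did not pass the filter, so the list gives no direction. Of the 2 adipocyte, 1 adrenal and 4 red blood cell markers tested, 0 were called by limma in any comparison. At an unadjusted p under 0.05 in limma were 2, 1 and 0 of them in dbdb vs. control, beside 38.8% of all genes. In dbR vs. dbdb and dbR vs. control 0 were, beside 17.5% and 36.8%. The 6 adipocyte markers summed to 0.202 to 0.855 FPKM in control, 0 to 0.1001 in dbdb and 0.0767 to 0.729 in dbR, and Adipoq, the adiponectin gene, was listed at 0 in all dbdb libraries. None of the endothelial, macrophage, podocyte, distal nephron or mesangial markers was listed at 0 in any library. The marker calls in dbR vs. dbdb are 5 of the 108 genes called there, a number that was 2 without dbR replicate 2 and 10 without dbR replicate 3, so at least 3 of the 5 were lost without dbR replicate 2. The part of these cell types in the levels of Npr3 and the other genes was not tested.

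The 5 genes whose profile over the 9 libraries was closest to that of Npr3, by the root mean square difference of centred log2(FPKM + 0.1) values among 11614 genes with a mean of at least 1 FPKM, were Adgrg4, Fscn1, Mbl1, Btnl9 and Sema6d. Their differences from Npr3 were 0.142, 0.193, 0.199, 0.205 and 0.222 on the log2 scale, where the median over the genes compared was 0.539. Adgrg4, an adhesion G protein-coupled receptor gene, was at 6.63, 7.44 and 7.98 FPKM in control, 3.08, 3.59 and 3.14 in dbdb, and 6.18, 6.39 and 6.06 in dbR. As in Npr3, its dbdb libraries were the lowest 3. Fscn1, which encodes the actin-bundling protein fascin, was at 3.52 to 4.48 FPKM in control, 1.79 to 2.08 in dbdb and 3.26 to 3.64 in dbR.

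The other genes of natriuretic peptide and cGMP signalling were followed in 6 lists of 51 genes that do not include the 7, of which 35 passed the filter. In dbdb vs. control 4 of the 35 rose and 6 fell, or 28.6%, beside 26.4% of all genes. In dbR vs. dbdb 1 rose and 0 fell, or 2.86% beside 0.743%, and in dbR vs. control 11 rose and 4 fell, or 42.9% beside 24.1%. The lists were chosen with earlier results of these data known. Nothing is therefore read from these shares, and the p-values are not independent of that choice. All p-values below are from limma, adjusted over the 14537 genes tested. The median log2 fold changes of the 35 genes were 0.12, 0.15 and 0.16, beside medians near 0 over all genes.

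Ligand genes of the natriuretic peptide family were close to 0 in the cortex. Nppa, Nppb, Nppc and Ostn, whose product binds the clearance receptor, did not pass the filter, and Nppc, the highest of them by its mean, reached at most 0.180 FPKM. The gene of uroguanylin, Guca2b, a peptide that acts on the gut and kidney through cGMP, was at 329.1 to 411.8 FPKM in control, 366.3 to 535.3 in dbdb and 535.9 to 679.3 in dbR. Its dbR libraries were above all others, and it rose by 0.75 ± 0.15 (log2 fold change, SE) in dbR vs. control (adjusted p = 0.00592), with 0.46 ± 0.15 in dbR vs. dbdb (adjusted p = 0.165). Guca2a, the guanylin gene, rose by 0.96 ± 0.24 in dbR vs. control (adjusted p = 0.0186), a call that was lost without control replicate 3 (0.81, adjusted p = 0.0664) and without dbR replicate 1 (0.71, adjusted p = 0.0594), with a range of 0.00681 to 0.0664 over all alternative fits. None of the 5 receptor cyclase genes listed passed the filter, among them Gucy2c, the receptor of both.

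Mme encodes neprilysin, the protease that breaks natriuretic peptides down beside the clearance receptor. It was at 59.0, 60.1 and 56.8 FPKM in control, 34.0, 33.6 and 35.0 in dbdb, and 43.8, 43.4 and 43.5 in dbR. The 3 groups did not overlap, with dbR between the others. Against control, Mme fell by 0.78 on the log2 scale in dbdb (SE 0.048, adjusted p = 1.1e-05) and by 0.43 in dbR (adjusted p = 0.000276). In dbR vs. dbdb it rose by 0.35 ± 0.048 (adjusted p = 0.0233), but the call was lost without dbdb replicate 1 (adjusted p = 0.0528), dbdb replicate 2 (0.0662), dbR replicate 2 (0.109) or dbR replicate 3 (0.0647), with fold changes of 0.34 to 0.35. Over all alternative fits of Mme there, the adjusted p was 0.0168 to 0.109. Ide, the insulin-degrading enzyme, which also cuts natriuretic peptides, fell from 31.2 ± 1.80 FPKM (SD, n = 3) in control to 23.4 ± 0.930 in dbdb (log2 fold change -0.41, adjusted p = 0.00187) and was at 24.0 ± 1.45 in dbR. Furin, a convertase of such precursors, was at 61.7 to 79.2 FPKM and passed the test in no comparison.

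Soluble guanylyl cyclase, the receptor of nitric oxide, makes cGMP inside the cell. The gene of its main α subunit, Gucy1a1, listed in the processed data as Gucy1a3, was at 5.44, 4.80 and 4.77 FPKM in control, 7.20, 6.004 and 7.11 in dbdb, and 9.16, 10.97 and 9.05 in dbR. The groups did not overlap, with control lowest and dbR highest. The log2 fold change was 0.43 ± 0.11 in dbdb vs. control (adjusted p = 0.0149, with 0.0503 without control replicate 3 and 0.00365 to 0.0503 over all alternative fits), 0.52 ± 0.11 in dbR vs. dbdb (adjusted p = 0.0562) and 0.94 ± 0.11 in dbR vs. control (adjusted p = 0.000267). Its partner Gucy1b1 was at 2.00 ± 0.111, 2.55 ± 0.318 and 3.00 ± 0.205 FPKM (SD, n = 3) in control, dbdb and dbR, and rose in dbR vs. control (0.56, adjusted p = 0.00661). Gucy1a2 also rose in dbR vs. control (0.61, adjusted p = 0.0369), a call lost without any 1 of the control libraries or dbR replicate 1 or 2 (adjusted p = 0.0711 to 0.125, and 0.00815 to 0.125 over all alternative fits). Nos1, the neuronal nitric oxide synthase, rose there too (0.93, adjusted p = 0.0449), a call lost without control replicate 1 or 3, dbdb replicate 1 or 2, or dbR replicate 1 or 2 (adjusted p = 0.0569 to 0.147, and 0.0218 to 0.147 over all alternative fits). Nos2, the inducible nitric oxide synthase, was at most 0.265 FPKM and fell in dbdb vs. control (-0.98, adjusted p = 0.0260), a call lost without control replicate 2 or 3 or dbdb replicate 2 or 3 (adjusted p = 0.0548 to 0.0886, and 0.00959 to 0.0886 over all alternative fits). Nos3, the endothelial form, was at 0.709 to 1.25 FPKM and passed no comparison.

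Among 10 tested genes of other phosphodiesterases that hydrolyse cGMP, 2 rose and 2 fell in dbdb vs. control (beside 26.4% of all genes called), and 4 rose and 1 fell in dbR vs. control (beside 24.1%). Pde3b, inhibited by cGMP and best known from insulin signalling, was at 2.43 to 2.58 FPKM in control, 3.97 to 5.18 in dbdb and 4.24 to 4.91 in dbR, and rose by 0.85 ± 0.11 in dbdb vs. control (adjusted p = 0.000516). Pde6a, best known from photoreceptors, was at 7.57, 8.54 and 10.3 FPKM in control, 4.69, 4.37 and 3.46 in dbdb, and 4.25, 4.99 and 5.08 in dbR. Like Pde5a it was lower in all 6 db/db libraries, and against control its log2 fold change was -1.06 ± 0.14 for dbdb (adjusted p = 0.000624) and -0.86 ± 0.14 for dbR (adjusted p = 0.00208). Pde1c rose (1.01, adjusted p = 0.00614) and Pde11a fell (-0.93, adjusted p = 0.0117) in dbdb vs. control, both at levels under 1 FPKM. Pde2a and Pde3a rose in dbR vs. control (0.53, adjusted p = 0.00377, and 0.68, adjusted p = 0.00668), with all dbR libraries above all dbdb libraries for both genes. The most abundant of the group, Pde1a and Pde9a, at 20.1 to 30.1 and 21.5 to 26.5 FPKM, passed no comparison.

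Abcc4 encodes MRP4, a transporter that exports cyclic nucleotides and drugs from the cell. Its FPKM was 12.5, 15.0 and 9.65 in control, 35.8, 36.3 and 25.8 in dbdb, and 39.4, 31.0 and 34.7 in dbR. Every db/db library was above every control library, and against control the log2 fold change was 1.40 ± 0.17 for dbdb (adjusted p = 0.000394) and 1.51 ± 0.17 for dbR (adjusted p = 0.000303). In dbR vs. dbdb the groups overlapped (0.11 ± 0.17, adjusted p = 0.786). Of 6 genes of cGMP-gated channels, Cngb1 alone passed the filter, with no call. Among 9 genes of kinase substrates, Kcnma1, the large-conductance potassium channel, was the 1 called, or 11.1% in dbdb vs. control (beside 26.4% of all genes) and in dbR vs. control (beside 24.1%). It fell in dbdb, with 1.27 to 1.52 FPKM in control and 0.814 to 0.845 in dbdb (log2 fold change -0.71 ± 0.16, adjusted p = 0.0104). It also fell in dbR (-0.67, adjusted p = 0.0143). The others, among them Itpr1 at 126.0 to 154.8 FPKM, Ppp1r12a at 12.6 to 14.2 and Vasp at 7.85 to 10.6, passed no comparison.

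**Figure D5:**
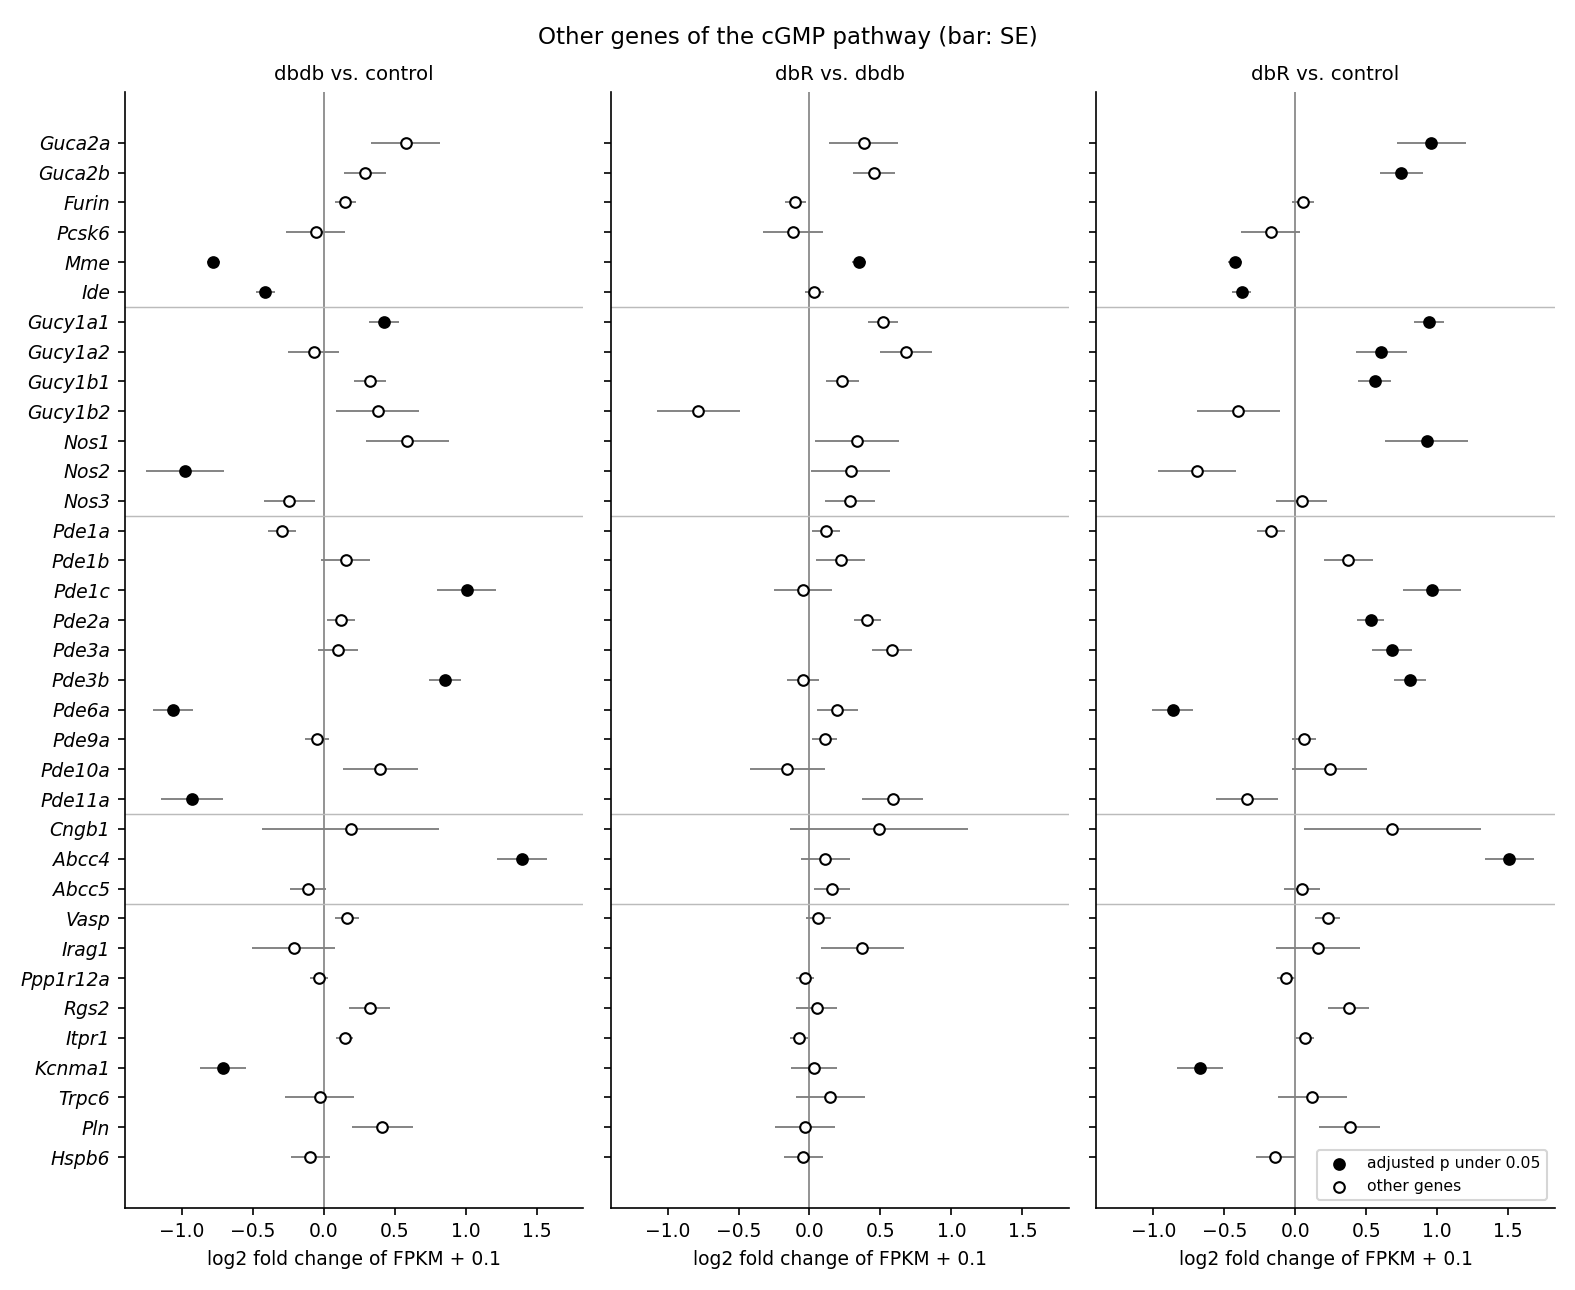
Log2 fold changes of FPKM + 0.1 (x axis) with the SE as bars for the 35 tested pathway genes (rows, grouped by list) in the 3 comparisons, with filled points for an adjusted p under 0.05 in limma. In dbdb vs. control 10 points are filled, in dbR vs. dbdb only Mme, and in dbR vs. control 15.

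The upstream windows were searched on both strands for AGGTCANAGGTCA, the direct repeat that PPARγ binds with its partner RXR, and for its core AGGTCA, which lies within the repeat. RefSeq promoters matched 6 of the 7 genes, with 7 windows of 250 bases upstream of a start, and none of the 7 held the repeat or the core. Among 32851 promoters of that length 0.0335% held the repeat and 14.0% the core. The windows are set by RefSeq starts, which for Npr1, Npr2 and Prkg1 are those of a measured transcript. The Npr3 window does not adjoin Npr3-201, which begins downstream of it at position 11905639, the Pde5a start lies 211 bases inside Pde5a-201, so that most of its window is transcribed, and the Corin start lies 67 bases from that of Corin-202. Absence of these letters from 250 bases says nothing about binding of the factor elsewhere.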

How the data were processed

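Renal cortex RNA of 9 mice was sequenced after rRNA depletion as strand-specific paired reads. Per the submitters' processing notes TopHat2 2.0.9, Cufflinks 2.1.1 and build GRCm38.p2 were used, and the authors deposited FPKM per transcript. Counts were not used here, so limma (3.58.1, R 4.3.3) replaced the authors' test on reads. FPKM of 50660 mRNA transcripts was summed per gene, genes with a mean of at least 0.1 FPKM were kept, and log2(FPKM + 0.1) was fitted in 1 model for 3 groups with a variance trend, two-sided, with Benjamini-Hochberg adjustment. Fold changes on this scale understate those of low genes. The 7 genes, the lists and the markers were chosen with earlier results of these data known. All list genes could be named, those called and up to 3 others per list with values. Coordinates and coding lengths came from GENCODE M21. Fragments were estimated from the steps of low FPKM values. Figures were drawn with matplotlib 3.10.9. Control mice were littermates of db/db mice, but which mice shared a litter is not given in the sources used here, and p-values measure the spread between these mice.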

Additional observations from a re-analysis of the deposited data

How the results depend on the processing

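The FPKM files limit low genes, and Corin and Prkg2 are close to the floor. The group results were repeated 528 times under other settings. Of these repeats, 488 moved by less than the spread between replicates or, for counts of genes, by less than 1.5 times. Many of the 488 could not move by construction. Another filter, no variance trend or the replicate number as a block leaves each gene's fold change as it was. So does a fit without the group outside the comparison, or without a library of it. The number 488 is therefore no measure of stability. The sign changed for Npr2 in all 3 comparisons with the mitochondrial scaling and on leaving out 1 library, and for Npr3 in dbR vs. control without control replicate 1, where the reported values lay within 0.061 of 0. With a pseudocount of 1 the log2 values of dbdb vs. control were -0.86 for Npr3, 0.074 for Corin, 0.11 for Prkg2 and -0.33 for Pde5a. Those of dbR vs. dbdb were 0.91 for Npr3 and 0.11 for Prkg2, and those of dbR vs. control were 0.22 for Prkg2 and 0.031 for Corin. With 0.01 it was 0.82 for Corin in dbdb vs. control and 0.97 for Prkg2 in dbR vs. control. With mitochondrial transcripts left out and equal sums the median of all genes moved to 0.149 in dbdb vs. control, where 78.3% of the calls were higher (49.5% in the reported fit), to 0.0888 in dbR vs. control (70.5% against 51.1%), and to -0.0632 in dbR vs. dbdb (48.6% against 75.9%). Under it Npr1 was 0.39, Npr2 0.10, Npr3 -0.89 and Pde5a -0.32 in dbdb vs. control, with 16 pathway genes called, Npr1 was 0.45 and Npr3 0.15 in dbR vs. control, and Npr1 was 0.054 and Pde5a 0.027 in dbR vs. dbdb. Quantile normalization put Pde5a at -0.52 in dbR vs. control and at 0.033 in dbR vs. dbdb, and Npr3 at 0.021 in dbR vs. control. With 75th percentile scaling 61.9% of the calls in dbR vs. control were higher.

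The count of genes called in dbR vs. dbdb, 108, was 31 with no filter, 166 with a mean of at least 1 FPKM, 224 with 75th percentile scaling, 235 with quantile normalization, 22 in a fit of only the 6 libraries, 18 with no variance trend and 23 with the replicate number as a block. Leaving out 1 library gave 2 (without dbR replicate 2) to 141 (without dbdb replicate 3). Of the pathway genes 2 were called there with a mean of at least 1 FPKM, 75th percentile scaling and quantile normalization, 0 to 2 on leaving out 1 library, and 0 with the mitochondrial scaling, the 6 libraries, no trend and the replicate block. In those last 4 settings Mme was at an adjusted p of 0.0563 to 0.0760. Correlations of deviations were -0.175 to 0.0615 between same-numbered libraries and -0.108 to 0.168 between libraries with other numbers. With 3 mice per group these values cannot show whether replicate numbers pair the mice. Npr3 has 1 transcript, so its strongest transcript gave the same value as the gene. The cause of these shifts was not tested.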
